A study of Mus musculus with 18 samples.

Results

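The 9 genes described here are Atf4, Ddit3, Trib3, Chac1, Asns, Psat1, Phgdh, Shmt2 and Slc7a11, which belong to the integrated stress response and to the amino acid metabolism it controls. They were taken by gene symbol from a spleen expression table of 19326 rows, and all 9 were found, each on 1 row. Their level was followed in 18 libraries of male ICR mice aged 10 weeks, 3 libraries in each of 6 groups. Con animals were controls. A10 animals were given 10 mg/kg of AOS, which stands for alginate oligosaccharide and is a sugar made from brown algae. STZ animals received streptozotocin, a toxin of the insulin-producing beta cells of the pancreas that is used to model type 1 diabetes. STZ-A10 animals received STZ and AOS at 10 mg/kg. In A10-FMT and Con-FMT, STZ was followed by a microbiota transplant given by mouth, from donors given AOS at 10 mg/kg or from control donors. The transplanted material was intestinal content pooled over the donors of a group, so the 3 recipients of a group shared 1 inoculum. The A10 and STZ-A10 arms are described by the sample labels only. Nothing in the labels ties a library to a particular animal, so the p-values below measure the spread between libraries.

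The integrated stress response is a pathway by which cells answer a shortage of amino acids, unfolded proteins, viral RNA or lack of heme. Each of these signals activates a kinase that phosphorylates the translation factor eIF2, which lowers protein synthesis as a whole but favours translation of the transcription factor ATF4. ATF4 then switches on genes for the synthesis and uptake of amino acids, and with them the genes for CHOP and for regulators that damp the response. Because ATF4 is controlled largely at translation, its mRNA level is not a measure of its protein. In the spleen the heme-sensing kinase of this pathway is best known from red cell precursors, and plasma cells depend on the related unfolded protein response.

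Values are RPKM, which scale the reads of a gene to its length and to the mapped reads of its library, so levels can be compared between genes. Between 11532 and 12893 genes reached 1 RPKM in a library, and pairs of libraries within a group correlated across genes with a Pearson's r of 0.942 to 0.992. Globin genes took between 10.4% and 42.7% of all RPKM in a library. The highest share was in A10-FMT replicate 3, which also had the lowest median level, and which stands apart in several of the genes below. Markers of B cells, T cells and red pulp macrophages were detected in every group, and 1 red pulp marker of 17 (Clec4f) was at 0 in the STZ libraries. The Con libraries were uneven in other markers. The sum of 16 markers of neutrophils and their progenitors was 884 to 16863 RPKM in Con and 542 to 1908 in STZ. That of 10 testis germ cell markers was 18.3 to 297 in Con and 2.71 to 8.78 in STZ. The part of these cells in the differences from Con was not tested. No count of reads is given with the values. Steps between the lowest values correspond to 12.7 to 14.6 reads per kilobase at 1 RPKM, which puts the lowest value of Chac1 at about 8.3 reads and that of Trib3 at about 17. The counting error alone is then about 35% and 24%, against 1.7% for the lowest value of Atf4. Tests were made with limma on log2(RPKM + 1) over 12905 genes in 1 model of all 18 libraries, and adjusted p-values are Benjamini-Hochberg values over those genes, with a threshold of 0.05. All 9 genes passed the filter of 1 RPKM in at least 3 libraries. Fold changes on this scale understate differences of genes near 1 RPKM.

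Levels of the 9 genes lay far apart. Atf4 was the most abundant, with a mean of 198 RPKM, followed by Shmt2 with 58.6, Asns with 57.2, Phgdh with 43.0, Ddit3 with 30.1 and Psat1 with 20.7. Slc7a11 had a mean of 2.51 RPKM, Trib3 of 1.94 and Chac1 of 1.25. Chac1 reached 1 RPKM in 7 of the 18 libraries and Trib3 in 14. When the 6 groups were put in order of their mean for each gene, 45 pairs of groups stood next to each other, and in 5 of them the libraries did not overlap. These were STZ above A10-FMT for Trib3, STZ-A10 above A10 for Chac1 and for Shmt2, Con-FMT above Con for Phgdh, and A10 above Con-FMT for Slc7a11. How often such neighbouring groups do not overlap over all genes was not computed, so the count is a description only.

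**Figure D1:**
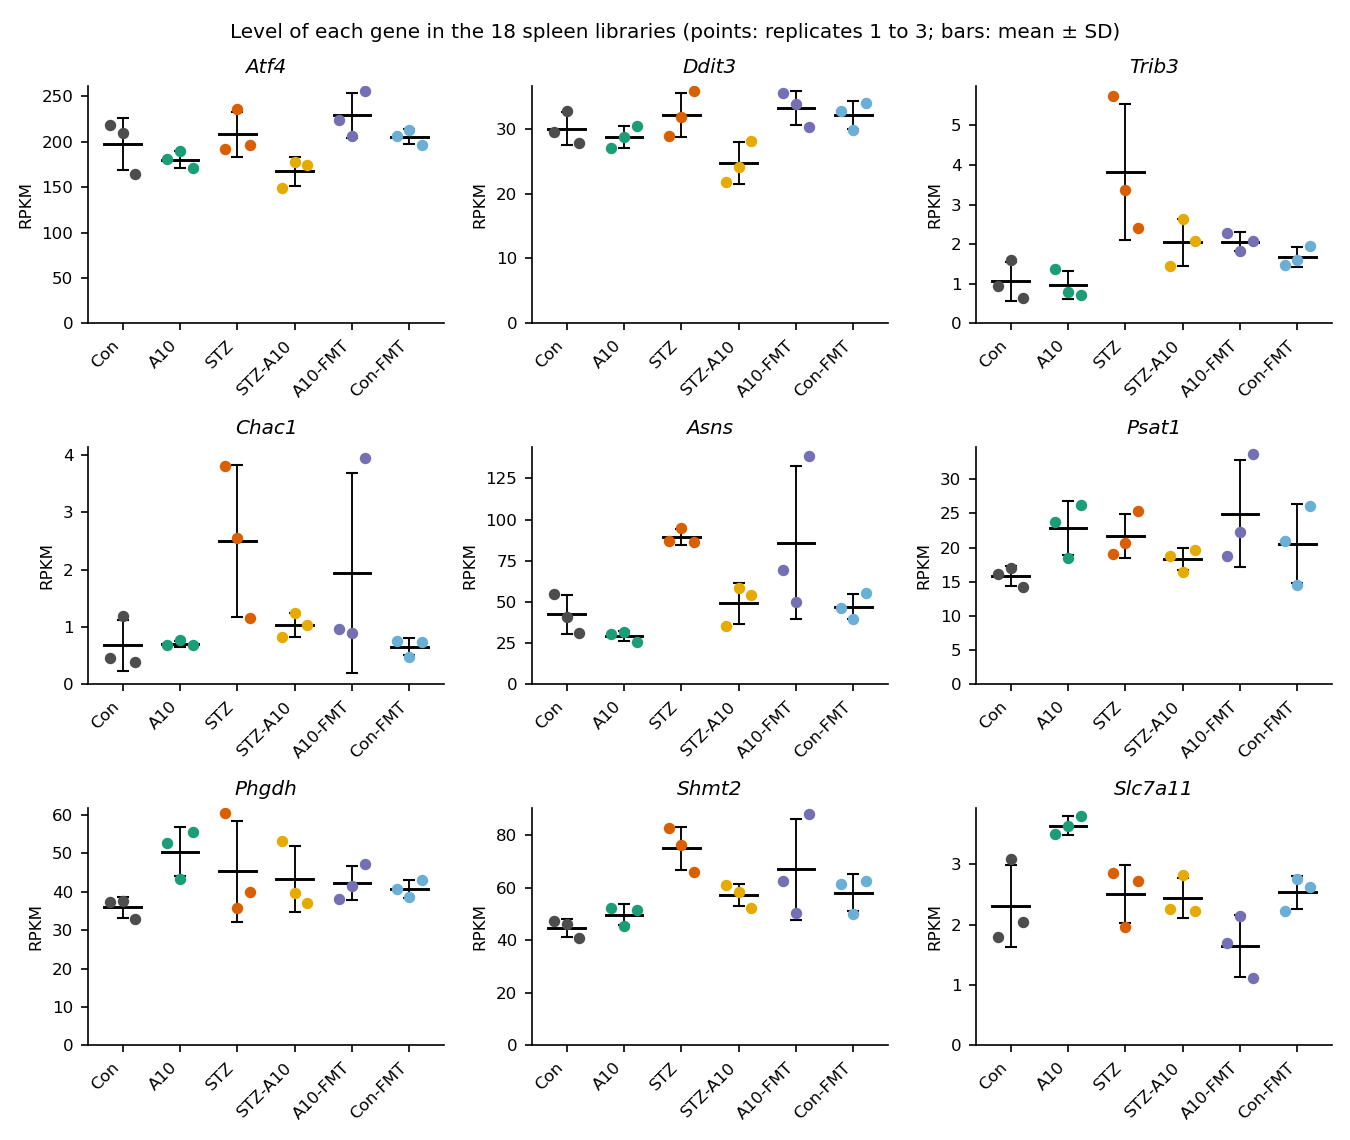
RPKM (linear axis from 0) of each of the 9 genes in the 18 spleen libraries, with a point for each replicate, a horizontal line for the group mean and an error bar of 1 SD (n = 3). Trib3, Asns, Chac1 and Shmt2 were highest on average in the STZ group. A10-FMT replicate 3 was the highest point of Asns (138.39), Chac1 (3.95), Shmt2 (87.96), Psat1 (33.75) and Atf4 (256.2).

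Atf4 (chromosome 15, 80255184 to 80257541, plus strand of GRCm38) encodes the transcription factor at the centre of the pathway. Its level was 218.11, 209.61 and 164.42 RPKM in Con, 180.64, 189.53 and 170.91 in A10, and 191.7, 236.52 and 196.74 in STZ. It was 149.41, 178.25 and 174.54 in STZ-A10, 224.41, 206.87 and 256.2 in A10-FMT, and 206.84, 212.91 and 196.8 in Con-FMT. The STZ-A10 libraries all lay below the STZ, A10-FMT and Con-FMT libraries, and the Con libraries overlapped with every other group. Atf4 mRNA did not differ past the threshold between STZ and Con, with a log2 fold change of 0.08 (SE 0.12) and a 95% interval of -0.18 to 0.35.

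Ddit3 (chromosome 10, 127290774 to 127296288, plus strand) encodes CHOP, a partner of ATF4 that promotes cell death under lasting stress. The annotation has a second Ddit3 entry inside the same span, so reads of the entries cannot be told apart and the level is uncertain to that extent. Ddit3 was 29.48, 32.74 and 27.74 RPKM in Con, 27.07, 28.68 and 30.44 in A10, 28.9, 31.77 and 35.75 in STZ, and 21.75, 24.16 and 28.12 in STZ-A10. It was 35.48, 33.85 and 30.28 in A10-FMT and 32.74, 29.76 and 33.91 in Con-FMT. The groups overlapped, except that the STZ-A10 libraries lay below those of STZ, A10-FMT and Con-FMT. Against Con, STZ differed in Ddit3 by a log2 fold change of 0.09 (SE 0.11), with an interval of -0.14 to 0.33.

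Trib3 (chromosome 2, 152337422 to 152344032, minus strand) encodes a pseudokinase that binds ATF4 and dampens it, and is itself an ATF4 target. It was 0.93, 1.6 and 0.64 RPKM in Con and 1.38, 0.79 and 0.72 in A10. In STZ it was 5.74, 3.36 and 2.4, the highest mean of the 6 groups, and in STZ-A10 it was 1.44, 2.63 and 2.07. In A10-FMT it was 2.29, 1.83 and 2.08, and in Con-FMT 1.47, 1.61 and 1.96. Every STZ library was above every Con, A10, A10-FMT and Con-FMT library, and the STZ and STZ-A10 libraries overlapped. The ratio of the STZ mean to the Con mean was 3.63.

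Chac1 (chromosome 2, 119351229 to 119354381, plus strand) encodes an enzyme that breaks down glutathione. Its level was 0.46, 1.19 and 0.38 RPKM in Con, 0.68, 0.77 and 0.68 in A10, and 3.8, 2.55 and 1.15 in STZ. It was 0.82, 1.24 and 1.03 in STZ-A10, 0.96, 0.9 and 3.95 in A10-FMT, and 0.75, 0.48 and 0.73 in Con-FMT. STZ replicates 1 and 2 and A10-FMT replicate 3 were above all other libraries, while STZ replicate 3 lay below the highest Con library.

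Asns (chromosome 6, 7675169 to 7693254, minus strand) encodes asparagine synthetase, which makes asparagine from aspartate and glutamine. Its level was 54.85, 40.92 and 31.34 RPKM in Con and 30.25, 31.92 and 25.67 in A10. In STZ it was 86.85, 94.7 and 86.21, close to each other and above every library outside the A10-FMT group. In STZ-A10 it was 35.19, 58.15 and 53.93, in A10-FMT 69.33, 49.98 and 138.39, and in Con-FMT 46.28, 39.84 and 55.17. The A10-FMT group had the widest spread, 85.9 ± 46.5 (SD, n = 3), and enclosed the STZ libraries.

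Phgdh, Psat1 and Shmt2 carry carbon from glycolysis into serine and glycine. Phgdh (chromosome 3, 98313170 to 98339990, minus strand) encodes the first enzyme of serine synthesis, and was 37.42, 37.73 and 32.85 RPKM in Con, 52.64, 43.36 and 55.5 in A10, and 60.44, 35.9 and 39.87 in STZ. It was 53.12, 39.67 and 37 in STZ-A10, 38.18, 41.63 and 47.13 in A10-FMT, and 40.69, 38.53 and 43.04 in Con-FMT. The Con libraries were all below the A10, A10-FMT and Con-FMT libraries, and the highest value was in STZ replicate 1. Psat1 (chromosome 19, 15904678 to 15947337, minus strand) encodes the transaminase of the next step. It was 16.2, 17.01 and 14.17 RPKM in Con, 23.82, 18.51 and 26.24 in A10, 19.09, 20.71 and 25.33 in STZ, and 18.81, 16.47 and 19.67 in STZ-A10. It was 18.74, 22.35 and 33.75 in A10-FMT and 20.95, 14.58 and 26.14 in Con-FMT, so that the Con libraries were below every A10, STZ and A10-FMT library. Shmt2 (chromosome 10, 127517123 to 127522444, minus strand) encodes the mitochondrial enzyme that splits serine into glycine and a one-carbon unit. It was 47.15, 46.13 and 40.72 RPKM in Con, 52.25, 45.28 and 51.65 in A10, 82.56, 76.12 and 66.14 in STZ, and 60.82, 58.17 and 52.41 in STZ-A10. It was 62.64, 50.41 and 87.96 in A10-FMT and 61.55, 50.14 and 62.69 in Con-FMT. The STZ libraries were above all Con, A10, STZ-A10 and Con-FMT libraries.

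Slc7a11 (chromosome 3, 49892526 to 50443614, minus strand) encodes the cystine transporter that supplies cysteine for glutathione. Another annotated gene overlaps its span, so its level is uncertain if reads were counted without strand. It was 1.8, 3.09 and 2.04 RPKM in Con, 3.5, 3.63 and 3.8 in A10, 2.85, 1.96 and 2.72 in STZ, and 2.26, 2.82 and 2.23 in STZ-A10. It was 1.7, 2.14 and 1.11 in A10-FMT and 2.23, 2.75 and 2.63 in Con-FMT. The A10 libraries were above all others, and the lowest value was in A10-FMT replicate 3.

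To ask what STZ changed, the STZ and STZ-A10 groups were compared with the Con and A10 groups, averaged over AOS, with 6 libraries on each side. Trib3, Asns and Shmt2 rose, and no member fell. Trib3 rose from 1.01 to 2.94 RPKM on average, by 0.92 on the log2 scale (SE 0.16, limma adjusted p = 0.0105). Asns rose from 35.8 to 69.2 RPKM, by 0.90 (SE 0.21, adjusted p = 0.0315). Shmt2 rose from 47.2 to 66.0 RPKM, by 0.46 (SE 0.11, adjusted p = 0.0402). These are 3 of 9 genes, against 1.37% of all genes tested that passed in this direction and 3.3% in either. Chac1 had a log2 fold change of 0.63 (SE 0.23, limma adjusted p = 0.151). The other 5 genes had values between -0.17 (Slc7a11) and 0.07 (Psat1), and the interval of Atf4 was -0.20 to 0.17. Shmt2 was the only member whose libraries did not overlap on the 2 sides (1.08% of all genes were higher without overlap), although the lowest STZ-side value, 52.41, was next to the highest of the other side, 52.25. Trib3 passed in all 27 alternative fits, but Asns in 19 of 28 and Shmt2 in 13 of 28. Single libraries were left out in turn. Only Trib3 passed without Con replicate 2 or 3, any 1 A10 library, STZ replicate 1 or 2, or STZ-A10 replicate 2 or 3. In these fits 0.947% to 3.46% of all genes passed in either direction. Without A10-FMT replicate 3, Chac1 also passed, making 4 genes, where 7.62% of all genes passed.

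The narrower comparison of STZ with Con alone uses some of the same libraries and is not separate evidence. None of the 9 genes passed the adjusted threshold (0.163% of all genes did). At an unadjusted p under 0.05 in the limma fit, 4 of 9 were higher, where 4.63% of all genes were higher. Their log2 fold changes were 1.20 for Trib3 (SE 0.23, adjusted p = 0.0539), 1.09 for Asns (SE 0.29, adjusted p = 0.115), 0.73 for Shmt2 (SE 0.16, adjusted p = 0.0668) and 1.02 for Chac1 (SE 0.33, adjusted p = 0.192). Asns, Trib3, Psat1 and Shmt2 were higher in STZ without overlap of the libraries, as were 5.77% of all genes. All 9 fold changes were above 0, with a median of 0.43 against -0.01 over all genes tested, and all 9 were above 0 under each other scaling of the libraries. A10-FMT replicate 3 is outside this comparison and enters only through the shared estimate of spread. Without it, Trib3, Asns, Shmt2 and Chac1 passed the adjusted threshold, as did 1.82% of all genes. Trib3 and Shmt2 passed without STZ replicate 3 (1.27% of all genes) or without A10-FMT replicate 2 (0.372%). The fold change of Trib3 was 0.93 without STZ replicate 1.

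**Figure D2:**
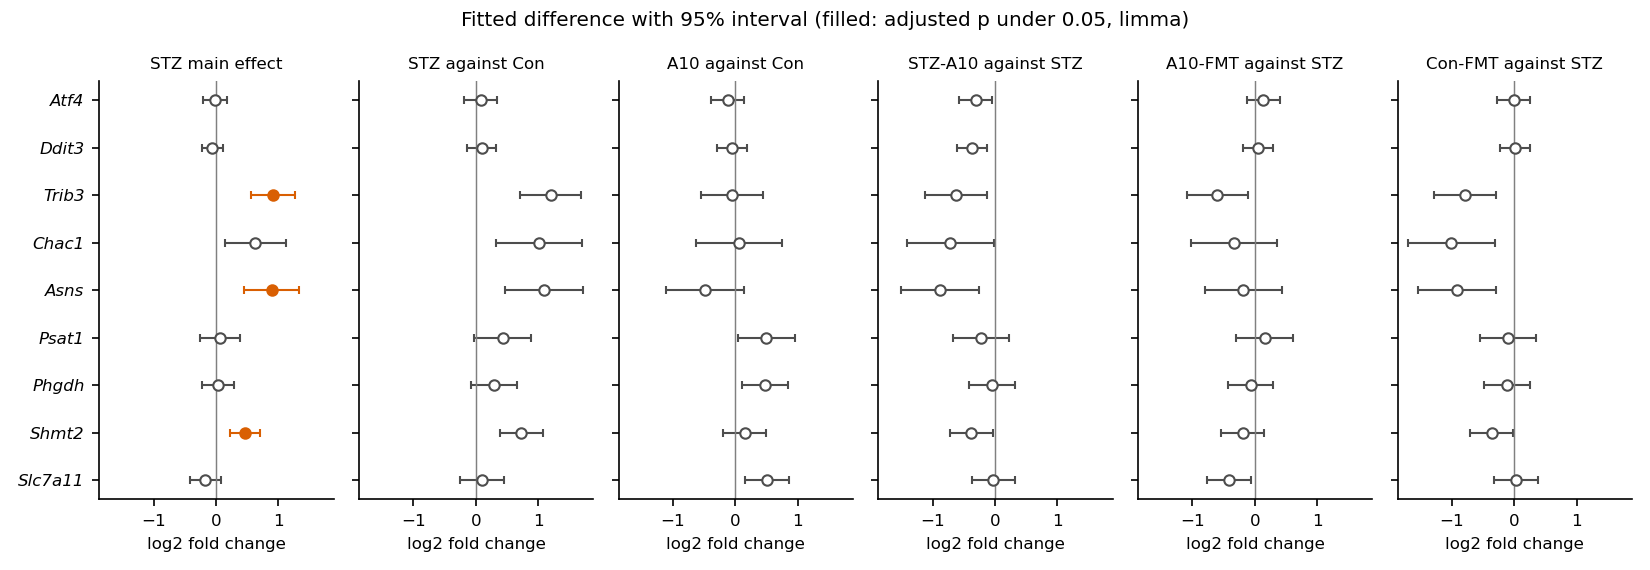
Fitted log2 fold change on the log2(RPKM + 1) scale (horizontal axis) of the 9 genes in 6 comparisons, with 95% intervals from limma, where filled points mark an adjusted p under 0.05. Only Trib3 (0.92), Asns (0.90) and Shmt2 (0.46) are filled, all in the panel that averages the STZ effect over AOS.

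AOS without STZ was set against Con, which asks what AOS does in healthy animals. Slc7a11, Psat1 and Phgdh had the largest fold changes above 0 among the 9 genes. Their log2 fold changes were 0.51 (SE 0.17), 0.50 (SE 0.21) and 0.47 (SE 0.17). None of the 9 passed the adjusted threshold (0.00775% of all genes did), and the adjusted p-values of these 3 were 0.669, 0.883 and 0.729. They are 3 of 9 genes at an unadjusted p under 0.05, against 3.56% of all genes in this direction. The A10 and Con libraries of these 3 did not overlap, which was also the case for 11.7% of all genes. Asns was lower in A10, with a log2 fold change of -0.49 (SE 0.29, limma adjusted p = 0.989), and its libraries overlapped.

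Among animals given STZ, the STZ-A10 and STZ groups were compared for an effect of AOS on the diabetic spleen. None of the 9 genes passed the adjusted threshold (0.00775% of all genes did), and their adjusted limma p-values were 0.996 or above. All 9 fold changes were below 0, with a median of -0.37 against 0.03 over all genes, and under each other scaling. At an unadjusted p under 0.05, 6 of 9 genes were lower, where 1.65% of all genes were. Their log2 fold changes were -0.88 for Asns (SE 0.29), -0.72 for Chac1 (SE 0.33), -0.63 for Trib3 (SE 0.23), -0.38 for Shmt2 (SE 0.16), -0.37 for Ddit3 (SE 0.11) and -0.31 for Atf4 (SE 0.12). Asns, Shmt2, Ddit3 and Atf4 were lower in STZ-A10 without overlap, as were 4.71% of all genes. The mean of Asns was 49.1 ± 12.2 RPKM in STZ-A10 and 89.3 ± 4.73 in STZ, a difference that did not pass the adjusted test. This comparison uses the same STZ libraries as that of STZ with Con, with the opposite sign, so a high STZ value enters both.

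The effect of AOS averaged over STZ and non-STZ animals was below 0 for 6 of the 9 genes. Asns (log2 fold change -0.68, SE 0.21), Ddit3 (-0.21, SE 0.08) and Atf4 (-0.22, SE 0.09) were lower at an unadjusted limma p under 0.05, where 1.71% of all genes were lower, and 0 of 9 passed the adjusted threshold (0.00775% of all genes did). The difference between the AOS effects with and without STZ was below 0 for all 9, passed the adjusted threshold for 0 of 9 (0.0% of all genes) and had an unadjusted limma p under 0.05 for 4 of 9, where 1.65% of all genes were lower at that level.

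The A10-FMT and Con-FMT groups were compared with STZ to ask what a microbiota transplant changes in animals given STZ. Both comparisons use the same STZ libraries as that of STZ with Con, with the opposite sign, so a high STZ value enters each. None of the 9 genes passed the adjusted limma threshold in either comparison, where 0.00775% of all genes did in each. In Con-FMT, Chac1 had a log2 fold change of -1.01 (SE 0.33), Asns of -0.92 (SE 0.29), Trib3 of -0.80 (SE 0.23) and Shmt2 of -0.36 (SE 0.16), with adjusted limma p-values of 0.798 to 0.936. They are 4 of 9 genes lower at an unadjusted p under 0.05, against 2.58% of all genes, and the libraries of all 4 did not overlap with those of STZ (6.22% of all genes were lower in this way). In A10-FMT, the log2 fold change of Trib3 was -0.60 (SE 0.23, limma adjusted p = 0.254) and that of Slc7a11 -0.41 (SE 0.17, adjusted p = 0.263). They are 2 of 9 genes lower at an unadjusted p under 0.05, against 15.2% of all genes that were lower at this level, and only Trib3 was lower without overlap (12.1% of all genes were). The median fold change of all genes was -0.15 in this comparison, so that relative to it the values of Trib3 and Slc7a11 were smaller, -0.43 and -0.24 after centring of each library on its median. Asns differed between A10-FMT and STZ by -0.18, with an interval of -0.81 to 0.44.

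Directly compared, A10-FMT and Con-FMT differed in 0 of the 9 genes at the adjusted threshold (0.0% of all genes passed). Asns was higher in A10-FMT by a log2 fold change of 0.73 (SE 0.29, limma adjusted p = 0.204), where 3.49% of all genes were higher at an unadjusted p under 0.05, and its libraries overlapped. Slc7a11 had a log2 fold change of -0.43 (SE 0.17, limma adjusted p = 0.204), where 20.1% of all genes were lower at an unadjusted p under 0.05, and the median of all genes was -0.17. The Slc7a11 libraries did not overlap between the groups (23.9% of all genes were lower in this way), nor did those of Chac1, which was higher in A10-FMT (5.35%). Single libraries moved these values. Without A10-FMT replicate 3 the fold change of Asns was 0.33. Without A10-FMT replicate 2 both Asns and Slc7a11 passed the adjusted threshold, with Asns at 1.05 and Slc7a11 at -0.56. The share of all genes that passed in that fit was not computed, so these calls are a description only.

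Over all 6 groups, a moderated F test in limma asked whether a gene differed anywhere. None of the 9 passed the adjusted threshold, as did 0.449% of all genes, and the lowest adjusted p-values were 0.0687 for Asns and 0.0718 for Trib3. At an unadjusted p under 0.05 there were 7 of the 9, all but Psat1 and Phgdh, where 22.6% of all genes reached that level.

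The 9 genes did not vary as 1 block. Of the 36 pairs, 6 had a Pearson's r above 0.7 over the 18 libraries, and these were the 6 pairs among Trib3, Chac1, Asns and Shmt2. The highest was that of Chac1 and Shmt2, with 0.842, which was 0.782 when the group means were removed. The other 5 were lower around the group means, from 0.3 for Asns and Trib3 to 0.692 for Asns and Shmt2. Another 10 pairs had an r below 0, the lowest being -0.642 for Asns and Slc7a11. Atf4 and Asns had an r of 0.674, and 0.745 around the group means, while Atf4 and Trib3 had 0.31. All values of a library share its scaling and its cell makeup, so these numbers only describe the libraries.

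**Figure D3:**
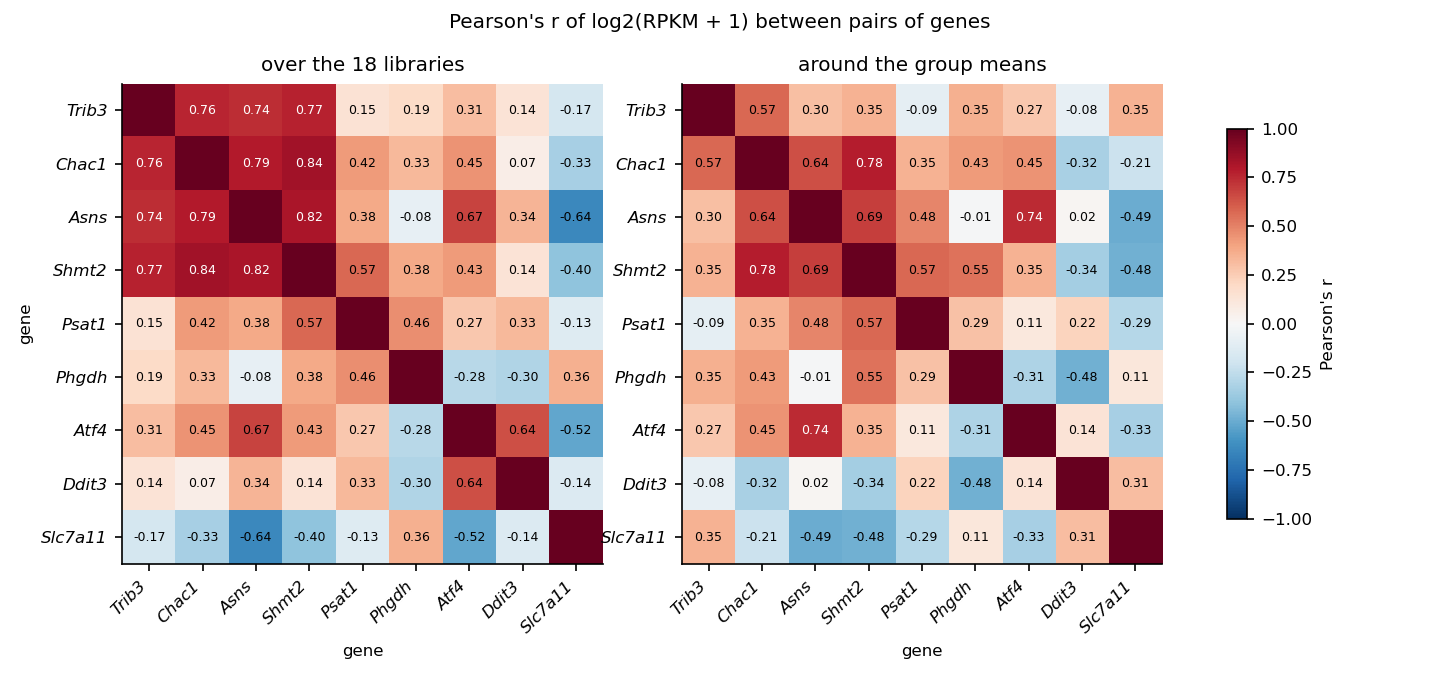
Pearson's r of log2(RPKM + 1) between pairs of the 9 genes (rows and columns), over the 18 libraries on the left and after subtraction of the group means on the right, on a colour scale from -1 to 1. Trib3, Chac1, Asns and Shmt2 form a block with values above 0.7 on the left, and Slc7a11 has mostly negative values.

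The tested genes with the pattern most like each member were found by the same measure over the 18 libraries. For Asns they were Bex4 (r = 0.981), Atp1b2 (0.968) and St3gal6 (0.965), which ran from 7.27 to 87.28 RPKM, from 13.56 to 109.61 and from 20.17 to 60.94. For Atf4 they were Stmn1 (0.929), Atpif1 (0.928) and Tyms (0.922), among them a microtubule regulator and thymidylate synthase, which are genes of dividing cells. For Shmt2 they were Impdh2 (0.939), Aldh18a1 (0.939) and Lonp1 (0.935), and for Chac1 Gars (0.915), Cish (0.909) and Aldh18a1 (0.905). Aldh18a1 makes the precursor of proline, and Gars is the glycyl-tRNA synthetase. Trib3 was most like Rab4a (0.871), Gdf3 (0.838) and Phlda2 (0.836), and Phgdh most like Tmed9 (0.917), Bop1 (0.907) and Hmga1 (0.907). Slc7a11 was most like Gbp8 (0.941), Gbp5 (0.912) and Dsc2 (0.894), of which the first pair are interferon-induced GTPases. The values were lower for Psat1, with Rbmxl1 (0.806), Srp19 (0.799) and Eif2ak2 (0.783), and for Ddit3, with Cntf (0.775), Hbb-bt (0.746) and Srsf3 (0.726).

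ATF4 binds DNA together with a C/EBP protein at an element whose core is TGATGNAA, where N is any base. The 250 bases before the RefSeq start of each gene were searched for these letters on both strands, in 10 promoters of the 9 genes. A match was found for 3 of the 9, Chac1, Slc7a11 and Asns, and for 3.91% of 27025 genes with a promoter sequence (3.45% of 32851 promoters). The windows around the matches are shown for every one of the 9 genes that has a match. Of these, Asns and Chac1 are among the 4 genes with an r above 0.7 over the 18 libraries and Slc7a11 is not. Sequences are from RefSeq on GRCm38.p6, read 5′ to 3′ on the strand of the gene, and capitals mark the match on either strand.
Chac1 (chr2:119351023-119351082, plus strand): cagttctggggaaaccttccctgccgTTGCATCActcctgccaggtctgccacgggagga
Slc7a11 (chr3:50443637-50443696, minus strand): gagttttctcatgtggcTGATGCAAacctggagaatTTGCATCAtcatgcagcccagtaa
Asns (chr6:7693214-7693243, minus strand): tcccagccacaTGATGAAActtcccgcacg
The match begins 193 bases before the start in Chac1 and 23 bases before it in Asns, and Slc7a11 has a pair of matches, on opposite strands, that begin 66 and 47 bases before it. The GENCODE annotation starts Asns further upstream, so that its match lies inside the transcript there. Of the 3 genes, only Asns passed a test above. Shmt2, which also passed, has no match in this window, nor do Atf4, Ddit3, Phgdh and Psat1. Trib3 has none in it either, but has 1 match that reaches into the 50 bases after the RefSeq start. A match of letters is not a measured binding site, and no binding was measured here.

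The rest of the pathway was followed in 6 lists of genes, and the calls below are limma calls for the STZ effect averaged over AOS unless another comparison is named. Of 20 tested targets and partners of ATF4 and CHOP, 2 rose past the adjusted threshold and 0 fell, against 1.37% and 1.93% of all genes. They were Pck2, the mitochondrial enzyme that makes phosphoenolpyruvate, at 31.6 ± 6.26 against 22.5 ± 3.31 RPKM (SD, n = 6; log2 fold change 0.46, adjusted p = 0.0338), and Ddit4, an inhibitor of mTORC1, at 50.0 ± 12.7 against 29.1 ± 6.66 (0.75, adjusted p = 0.042). The median of the 20 was 0.08, against -0.02 over all genes. Atf5, a transcription factor close to ATF4, was 18.98, 15.24 and 19.31 RPKM in STZ, 11.92, 13.71 and 11.2 in Con, and 11.54, 11.97 and 9.28 in STZ-A10. The STZ libraries of Atf5 were above those of both other groups, but neither difference passed (0.50, adjusted p = 0.09 against Con, and -0.66, adjusted p = 0.402 for STZ-A10 against STZ).

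Of 13 tested serine, glycine and one-carbon enzymes, 1 fell past the adjusted threshold, where 1.93% of all genes did. Aldh1l1, which removes one-carbon units as carbon dioxide, fell to 1.01 ± 0.188 from 2.22 ± 0.392 RPKM (SD, n = 6; log2 fold change -0.68, adjusted p = 0.00488). Aldh1l1 was also the only gene of the 6 lists past the threshold in STZ against Con, where it was 0.74, 0.85 and 1.18 RPKM in STZ and 1.9, 2.75 and 2.65 in Con (-0.83, adjusted p = 0.0405). It is abundant in liver, and the summed level of 30 liver markers was 176 to 269 RPKM in STZ and STZ-A10 against 261 to 728 in Con and A10. The part of liver transcripts in the Aldh1l1 difference was not tested.

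Of 15 tested amino acid transporters 2 rose and 0 fell, against 1.37% and 1.93% of all genes. Slc3a2, the chain that Slc7a11 and other transporters need to reach the cell surface, was 103 ± 9.58 against 87.1 ± 4.34 RPKM (SD, n = 6; log2 fold change 0.24, adjusted p = 0.0497). Slc38a9, a lysosomal arginine sensor, was 12.03 ± 1.14 against 9.37 ± 0.555 (0.33, adjusted p = 0.0448). Of the 20 cytosolic aminoacyl-tRNA synthetases, which charge tRNAs with their amino acids, 0 passed the adjusted threshold. At an unadjusted p under 0.05, 6 were higher and 1 was lower, where 7.04% and 11.2% of all genes were. The lowest p was that of Vars, the valyl-tRNA synthetase, at 22.4 ± 3.36 against 17.2 ± 2.13 RPKM (0.35, adjusted p = 0.0584). In STZ against Con, 19 of the 20 had a fold change above 0, with a median of 0.26 against -0.01 over all genes. Of these, 8 were higher at an unadjusted p under 0.05 (4.63% of all genes) and 0 passed the adjusted threshold. In STZ-A10 against STZ, which shares the STZ libraries, all 20 were below 0, with a median of -0.15 against 0.03, and 4 were lower at an unadjusted p under 0.05 (1.65% of all genes). None of the 16 genes of eIF2 kinases, phosphatase subunits and eIF2B passed. Nor did any of them reach an unadjusted p under 0.05, which 18.2% of all genes did.

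The unfolded protein response of the endoplasmic reticulum, was followed in a list of 18 sensors, chaperones and folding factors. Of the 18, 4 fell with STZ averaged over AOS (Hsp90b1, Sdf2l1, Pdia6 and Dnajb11) and 0 rose, against 1.93% and 1.37% of all genes. Hsp90b1, an endoplasmic reticulum chaperone, was 252 ± 44.5 against 418 ± 138 RPKM (SD, n = 6; log2 fold change -0.68, adjusted p = 0.00904), and Sdf2l1 was 24.1 ± 3.55 against 35.2 ± 9.38 (-0.50, adjusted p = 0.0208). Hsp90b1 was 548.73, 440.29 and 602.52 RPKM in A10, 249.57, 349.74 and 314.32 in Con, and 222.65, 185.22 and 274.1 in STZ, so that the A10 libraries were well above those of Con. In STZ against Con, 0 of the 18 passed the adjusted threshold, and their median was -0.13 against -0.01 over all genes. At an unadjusted p under 0.05, 2 of the 18 were lower there, where 6.44% of all genes were. In A10 against Con all 18 fold changes were above 0, with a median of 0.46 against 0.05 over all genes. At an unadjusted p under 0.05, 14 of the 18 were higher in A10, where 3.56% of all genes were, and 0 passed the adjusted threshold. Among animals given STZ, 16 of the 18 were above 0 in STZ-A10 against STZ, with a median of 0.26, and 3 were higher at an unadjusted p under 0.05 (1.28% of all genes). Creld2 had the lowest p, with 77.01, 54.33 and 87.62 RPKM in A10 and 25.46, 42.31 and 27.11 in Con (1.19, adjusted p = 0.125). The summed level of 11 plasma cell markers, of which Xbp1 and Creld2 are also in this list, was 1487 to 1885 RPKM in A10, above the 713 to 1292 in Con. It was 548 to 1531 in STZ and STZ-A10. The part of plasma cells in these values was not tested.

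**Figure D4:**
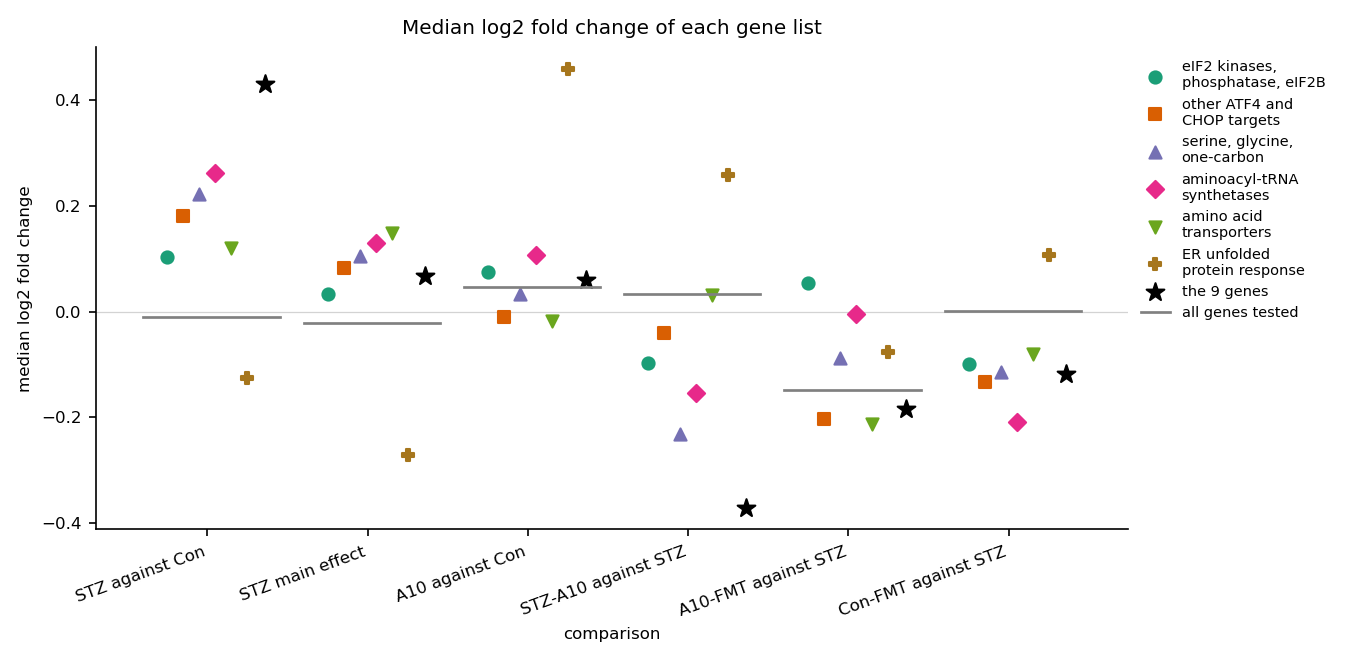
Median log2 fold change (vertical axis) of 6 gene lists, of the 9 genes (star) and of all 12905 genes tested (grey line) in 6 comparisons (horizontal axis), in which no list was tested as a whole. The star is at 0.43 in STZ against Con and at -0.37 in STZ-A10 against STZ, and the unfolded protein response list is at 0.46 in A10 against Con.

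The spleen is a mixture of cell types, and in such samples a smaller share of a cell type and a lower level per cell cannot be told apart. Summed markers of 20 erythroid genes, all detected in every library, were 2337 to 3537 RPKM in A10, 3596 to 5722 in Con, 2752 to 6840 in STZ and 4782 to 10923 in A10-FMT. Asns and the erythroid sum had an r of 0.76 over the 18 libraries, and Atf4 and the erythroid sum 0.785. Atf4 was also like the sum of 20 markers of dividing cells, with 0.857. The highest erythroid sum, 10923, was in A10-FMT replicate 3, where Asns was 138.39 RPKM, and the lowest were in STZ-A10 replicate 1 (2235, Asns 35.19) and A10 replicate 3 (2337, Asns 25.67). STZ replicate 1 departed from this order, with an erythroid sum of 2752, below all Con libraries, and an Asns level of 86.85. For Shmt2, Chac1 and Trib3, which were like Asns, the r with the erythroid sum was 0.362, 0.366 and 0.258. Phgdh had an r of 0.583 and Slc7a11 of 0.768 with the sum of plasma cell markers, which was highest in A10. Lymphocyte markers moved with these genes as well. The sum of 12 T cell markers had an r of -0.864 with Asns and 0.781 with Slc7a11, and that of 12 B cell markers -0.748 and 0.688. The T cell sum was 502 to 561 RPKM in A10, 296 to 475 in Con, 255 to 380 in STZ, 288 to 462 in STZ-A10 and 106 to 404 in A10-FMT. The part of red cell precursors, plasma cells and lymphocytes in the values of these genes was not tested.

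Markers of the exocrine pancreas also varied between libraries. Of 30 listed markers 29 were in the table. Their sum was 38.5 to 2770 RPKM in Con and A10 and 1815 to 13038 in STZ and STZ-A10, so these ranges overlapped. It was 2521 to 4204 in Con-FMT. In A10-FMT, whose animals also received STZ, replicates 1 and 3 were at 247 and 1614, within the range of Con and A10. Prss1 and Cela3a were at 0 in the Con and A10 libraries, and Cela3a was also at 0 in the STZ libraries. The largest sum, 30702, was in A10-FMT replicate 2, where Trib3 was 1.83, Asns 49.98, Shmt2 50.41 and Chac1 0.9 RPKM. Over the 18 libraries the r of this sum was 0.467 with Trib3, 0.359 with Asns and 0.352 with Shmt2, and around the group means it was 0.03, 0.04 and -0.12. The part of pancreatic transcripts in the STZ differences was not tested.

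**Figure D5:**
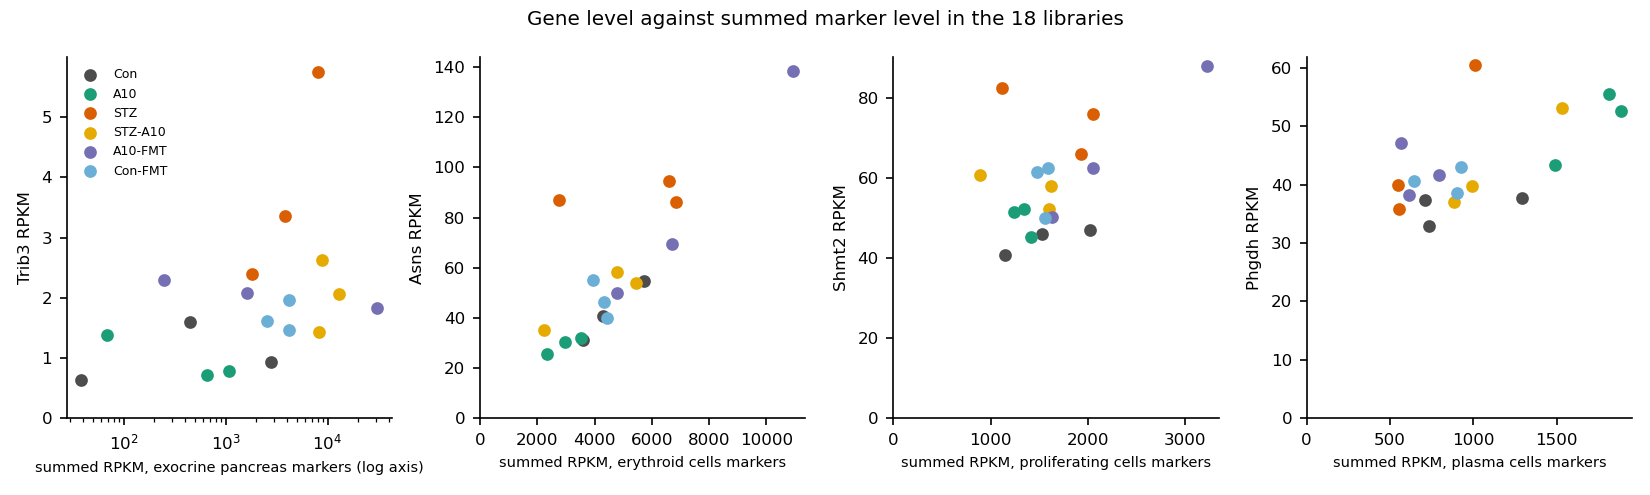
RPKM of Trib3, Asns, Shmt2 and Phgdh (vertical axes, from 0) against the summed RPKM of exocrine pancreas (log axis), erythroid, dividing cell and plasma cell markers (horizontal axes), with a point for each of the 18 libraries, coloured by group. Asns follows the erythroid sum in most libraries up to 138.39 RPKM at 10923. The STZ library at 2752, with 86.85 RPKM, lies above the libraries with erythroid sums near its own.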

How the data were processed

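Frozen ICR mouse spleen gave 18 libraries, for which poly(A) RNA was sequenced on an Illumina instrument. The authors deposited RPKM values per gene. Their methods name SOAPaligner, while the submitters' processing notes name Bowtie 0.12.2 and mm10, and the annotation version is not given in the sources used here. Depth is not given with the table and was estimated from the steps between low values. Globin transcripts take up to 42.7% of a library, which lowers the RPKM of its other genes.

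Groups were taken from the sample labels, and every column had a sample (0 left over). Of the rows, 6 that carry 3 repeated names were left out. Genes at 1 RPKM or more in at least 3 libraries (12905) were fitted as log2(RPKM + 1) in R 4.3.3 with limma 3.58.1 (trend), all 18 libraries in 1 model with a coefficient per group, without covariates. Tests are two-sided, adjusted by Benjamini-Hochberg, with a threshold of 0.05. The fit was tested on simulated data. The 9 genes, the lists and the tests were chosen with earlier results of these data known. From each list, the genes with the largest changes past the threshold were named, and otherwise that with the lowest p. Pdia6 and Dnajb11 were named after their values were seen. The result of another listed gene is not reported here. For likeness, the 3 genes with the highest r were named. Positions are from GENCODE M21 (GRCm38) and promoters from RefSeq (GRCm38.p6), matched by symbol, 9 of 9.

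Alternatives were quantile normalization, centring, rescaling without 12 globin genes, other filters, a pseudocount of 0.1, no trend, array weights, only the groups compared, the replicate number as a block, and leaving out each library.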

Additional observations from a re-analysis of the deposited data

Results flagged for a closer look

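The effect of AOS in animals given STZ (STZ-A10 against STZ) minus its effect in animals without STZ (A10 against Con) was tested as an interaction in limma. It was below 0 for all 9 genes. It drew attention in 4 of them, where the unadjusted p was under 0.05, while 1.65% of all genes reached that level in this direction and 0.0% of all genes passed the adjusted threshold. For Psat1 the difference of the log2 fold changes was -0.724 (SE 0.30). For Shmt2 it was -0.534 (SE 0.23), for Slc7a11 -0.533 (SE 0.23) and for Phgdh -0.521 (SE 0.25). The adjusted limma p was 1.0 for each, so these differences failed the correction.

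The single effects lie behind these values as follows. Psat1 differed by 0.50 between A10 and Con and by -0.23 between STZ-A10 and STZ, Slc7a11 by 0.51 and -0.03, Phgdh by 0.47 and -0.05, and Shmt2 by 0.15 and -0.38. When single libraries were left out, the difference ran from -0.862 to -0.613 for Psat1, from -0.62 to -0.462 for Shmt2, from -0.695 to -0.422 for Slc7a11 and from -0.675 to -0.301 for Phgdh.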

How the results depend on the processing

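Of 279 recomputed counts of the 9 genes past the threshold, 248 stayed within 1.5 times the reported count. Of 887 recomputed fold changes for 32 gene and comparison pairs, 824 kept their direction and side of the threshold, 24 no longer passed, 38 newly passed (25 of them under array weights) and 1 changed sign. Limits are the 3 libraries a group, the few reads behind Chac1 and Trib3, and the shared estimate of spread, to which A10-FMT replicates 2 and 3 add.

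With a pseudocount of 0.1 and without trend, 1 gene (Trib3) passed in STZ against Con, where 0.364% and 0.201% of all genes did. With quantile normalization and with rescaling without globin genes, 1 gene (Trib3) passed the test over 6 groups. Leaving out single libraries gave 0 to 4 genes in STZ against Con, where 0.0% to 1.82% of all genes passed. It gave 1 to 4 for the STZ effect averaged over AOS, where 0.947% to 7.62% of all genes passed. The counts were 0 to 2 in A10-FMT against Con-FMT and 0 to 4 in the test over 6 groups. For these the share of all genes was not computed. With a filter of 1 RPKM in every library, Trib3 and Chac1 were not tested.

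Array weights let single libraries count from 0.046 to 424 relative to each other, with a warning that the weights did not converge. Under them 58.5% of all genes passed for the STZ effect averaged over AOS and 60.7% in STZ against Con. That share was not computed for the other comparisons, so the counts that follow are a description only. The 9 genes then gave 7 in STZ against Con, 7 in A10 against Con, 6 in STZ-A10 against STZ, 6 in A10-FMT against STZ, 4 in Con-FMT against STZ, 6 in A10-FMT against Con-FMT, 7 for STZ and 7 for AOS averaged over the other, 2 for the interaction and 9 in the test over 6 groups. The interaction of Slc7a11 changed sign to 0.11.

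Whether the replicate numbers of the labels pair the libraries is not settled by these values. Over 45 pairs of libraries with the same number, deviations from the group means had a median r of 0.0441 (-0.385 to 0.571). Over 90 pairs with different numbers the median was -0.00941. Of the 45, 14 were over 0.1, and 9 of 18 libraries were most like their own number. With the replicate number as a block, 3 genes (Trib3, Shmt2 and Asns) passed for the STZ effect averaged over AOS and 0 elsewhere, and 338 genes of all tested passed in place of 426.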
